A study of Mus musculus with 60 samples.

Results

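The data described here are 7 transcripts of the HoxB cluster, Hoxb4, Hoxb5, Hoxb6, Hoxb7, Hoxb8, Hoxb9 and Hoxb13, measured by RNA sequencing in tailbuds of mouse embryos. They are 7 of 117135 transcripts in each deposited table and were taken by their Ensembl transcript identifiers, 1 for each gene. The gene symbols are those listed with these identifiers; the gene tables at hand hold 0 of the 7 identifiers, so the symbols could not be checked. Total RNA came from 27 single embryos: 16 wild type, with 4 embryos each at 12, 13, 14 and 16 somites, and 11 mutants, with 2 embryos each at 12, 13 and 14 somites and 5 at 16. The mutation is JARID2 K116R, per the design text, a lysine to arginine substitution; JARID2 is a protein that associates with Polycomb repressive complex 2 (PRC2). The sample titles call these embryos only mutant, and their line, zygosity, strain, litter and sex are not given in the sources used here. The other samples of the series, chromatin profiles of embryonic stem cells, were not used here.

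Hox genes encode homeodomain transcription factors that give cells along the body axis their regional identity. They lie in clusters, and in each cluster the genes are switched on one after the other, in the order in which they lie, as the embryo extends from the tailbud. In the HoxB cluster the genes of the head and neck end, Hoxb1 to Hoxb4, are used first and furthest forward, the trunk genes Hoxb5 to Hoxb9 follow, and Hoxb13, which is set apart from the others, belongs to the tail. Before they are used, Hox clusters are covered by the repressive histone mark H3K27me3, which PRC2 deposits, and JARID2 is one of the subunits that bring PRC2 to chromatin and stimulate it.

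In the RefSeq annotation of GRCm38.p6 the 7 genes lie on chromosome 11 in one run. Hoxb4 (ENSMUST00000049241.8) is at chr11:96318267-96321638 and Hoxb5 (ENSMUST00000049272.4) at chr11:96303512-96306121, 12.1 kb away. Hoxb6 (ENSMUST00000000704.5) follows at chr11:96292814-96301569, Hoxb7 (ENSMUST00000049352.7) at chr11:96285604-96290163, Hoxb8 (ENSMUST00000052650.3) at chr11:96279401-96285325 and Hoxb9 (ENSMUST00000000010.8) at chr11:96271330-96276595. The gaps among these last genes are 0.278 to 2.81 kb. Hoxb13 (ENSMUST00000062709.3) is at chr11:96194316-96196610, 74.7 kb beyond Hoxb9. The transcripts counted here are 1291 to 2635 bases long. Other RefSeq genes cover 3 of the 7 whole: Hoxb3 spans Hoxb4, and the non-coding Hoxb5os spans both Hoxb5 and Hoxb6. The strand setting of the library or of the counting is not given in the sources used here, so reads from an overlapping or antisense gene cannot be told apart from these.

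RefSeq promoter sequences were at hand for 2 of the 7 genes, Hoxb4 and Hoxb8, and are shown because they stand at the front and the back part of the expressed run. Each is the 250 bases before the annotated start, on the plus strand of GRCm38.p6, with TTTAT and its reverse ATAAA in capitals. This is the core of the sites bound by CDX and posterior HOX proteins, regulators of trunk and tail extension. The Hoxb4 window is chr11:96318017-96318266 and the Hoxb8 window is chr11:96281655-96281904, the former within the Hoxb3 gene and the latter inside the interval that the annotation gives Hoxb8 as a whole.
Hoxb4: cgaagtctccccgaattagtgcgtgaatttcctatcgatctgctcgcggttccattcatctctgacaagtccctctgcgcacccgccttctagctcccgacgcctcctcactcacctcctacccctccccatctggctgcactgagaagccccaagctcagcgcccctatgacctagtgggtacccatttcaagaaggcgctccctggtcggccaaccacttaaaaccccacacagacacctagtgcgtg
Hoxb8: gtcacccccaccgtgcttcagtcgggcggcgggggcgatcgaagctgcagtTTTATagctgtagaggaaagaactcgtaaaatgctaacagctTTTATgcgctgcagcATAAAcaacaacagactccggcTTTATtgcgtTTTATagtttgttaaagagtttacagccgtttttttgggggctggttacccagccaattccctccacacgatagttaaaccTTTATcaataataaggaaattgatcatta
The Hoxb4 window held the core 0 times and the Hoxb8 window held it 6 times, counting both strands. Of 32851 windows of this length, 37.3% held it at least once and 0.393% held it 6 times or more. The sequences also held CpG dinucleotides, the sites of DNA methylation, 14 times in Hoxb4 and 12 times in Hoxb8; as many or more were found in 29.4% and 33.5% of the windows. A match is a description of the letters only, and no binding at these windows was examined here.

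Estimated counts summed to 20908470 to 27090684 per library, of which the 7 transcripts took 0.00918% to 0.0138%. Mutant embryo 1 at 16 somites and wild-type embryo 4 at 14 somites stood apart from the rest over all tested transcripts: their median correlation of log2 CPM with the other libraries was 0.8255 and 0.8572, against 0.8830 to 0.8978 in the other 25. Some values that rest on them are given with and without them. The group means by stage include both. No cell type marker could be looked up, because the files pair no identifier with a gene name, so the tissue label was not checked. In whole tailbuds, fewer cells of a type and less RNA per cell cannot be told apart.

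Among these 7 transcripts, expression was highest at Hoxb7, low at Hoxb8 beside it, and nearly absent at Hoxb13, which lies beyond the expressed run. Hoxb7, a trunk Hox gene, was the most abundant of the 7 per transcript length, at 16.6 to 27.4 TPM with a median of 21.7 over the 27 embryos (TPM is a relative abundance scaled to transcript length and can be compared between genes). Hoxb9, the last of the contiguous trunk genes, had a median of 13.4 TPM (10.4 to 24.0), and Hoxb6 a median of 12.5 TPM (0 to 22.4). Hoxb5 lay at a median of 8.55 TPM (5.55 to 11.8), Hoxb4 at 4.2 TPM (2.66 to 7.57) and Hoxb8 at 2.96 TPM (1.9 to 4.81). Of the summed TPM of the 7 in an embryo, Hoxb7 took a median of 33.9% and Hoxb8, its direct neighbour on the chromosome, a median of 4.99%. The level of these transcripts therefore did not run evenly with position: Hoxb8 was low between its 2 more abundant neighbours in all 27 embryos. Each level is that of 1 transcript per gene. Abundant rows listed near Hoxb4, Hoxb6 and Hoxb9, described further below, are not in it.

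Hoxb13, the tail gene at the end of the cluster, was close to the limit of detection at all 4 stages. Its estimated count was 0 in 6 of the 27 libraries and never above 10, so its highest level was 0.416 CPM (the count relative to the library total), in mutant embryo 1 at 12 somites; the limit that a count of 0 allows, taken as 3 counts, was 0.111 to 0.143 CPM in these libraries. The group medians from 12 to 16 somites were 0.0647, 0.116, 0.112 and 0.0673 CPM in wild type and 0.208, 0.0993, 0.0353 and 0.156 CPM in mutants. It was the 1 member of 7 that did not pass the filter on low counts and was not tested.

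**Figure D1:**
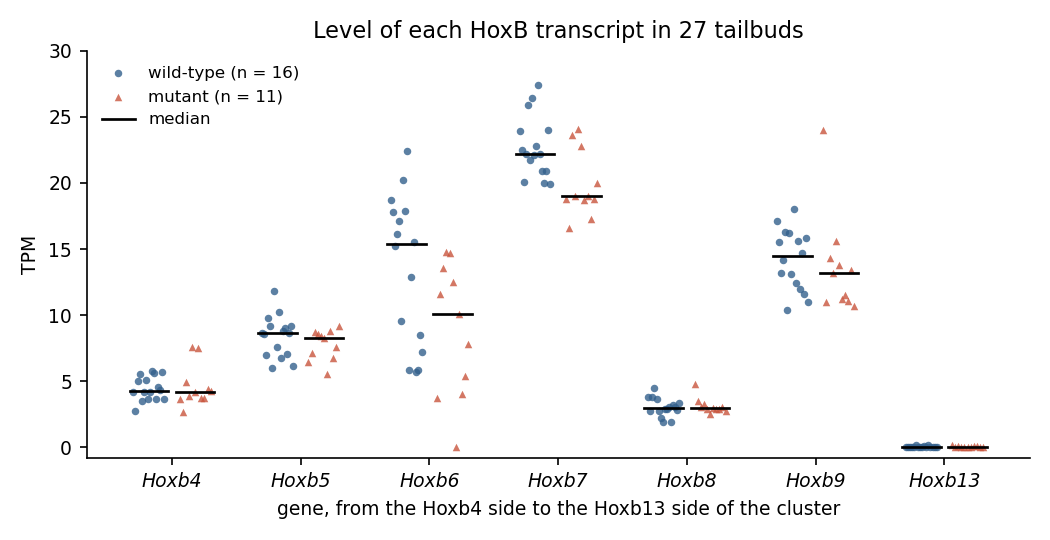
TPM of each HoxB transcript in each embryo, from the Hoxb4 to the Hoxb13 side of the cluster (points: embryos, 16 wild type and 11 mutant; bars: medians). Hoxb7 is highest at a median of 21.7 TPM, Hoxb8 beside it is at 2.96 TPM and Hoxb13 is near 0; Hoxb6 runs from 0 to 22.4 TPM.

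Going down the order of medians, 5 of the 6 neighbouring pairs differed within embryos (paired sign-flip permutation test on log2(TPM + 0.1), two-sided, 100000 resamples, Benjamini-Hochberg over the 6 pairs). The order, and so the choice of pairs, came from the same 27 embryos, and all stages and genotypes were pooled. It is the order of 1 transcript per gene. Rows listed near Hoxb6, Hoxb9 and Hoxb4, assigned to no gene, had medians of 30.2, 21.7 and 10.2 CPM over the 27 embryos. These 3 members themselves had medians of 15, 35.9 and 11.3 CPM, and Hoxb7 had 26.3 CPM. CPM is not scaled to transcript length. Whether the order holds with these rows added was not tested. Hoxb7 exceeded Hoxb9 in 26 of 27 embryos, by 0.64 log2 units (SD 0.27, n = 27, permutation adjusted p 1.5e-05, from 1e-05, the smallest p that these resamples can give). The same adjusted p was found for Hoxb5 above Hoxb4, in 26 of 27 embryos by 0.86 log2 units, for Hoxb4 above Hoxb8, in 24 of 27 by 0.52, and for Hoxb8 above Hoxb13, in 27 of 27. The size of the last difference is set by the pseudocount, since Hoxb13 mostly lies below it: 4.44 log2 units with 0.1 TPM and 1.94 with 1 TPM. Hoxb9 was above Hoxb6 in only 16 of 27 embryos, by a mean of 0.59 log2 units with an SD of 1.44 (permutation adjusted p 0.0114); without mutant embryo 1 at 16 somites, where Hoxb6 is listed at 0, the mean was 0.35 (adjusted p 0.0178). Hoxb6 and Hoxb5 did not differ beyond their spread (mean 0.17 log2 units, SD 1.35, Hoxb6 higher in 18 of 27, permutation adjusted p 0.619). The result for that pair turned on the same library: without it, Hoxb6 was 0.40 log2 units above Hoxb5 with an adjusted p of 0.00476.

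In TPM, Hoxb6 stood above Hoxb9 in fewer embryos at 16 somites than at the earlier stages. At 12 to 14 somites its TPM was above that of Hoxb9 in 11 of 18 embryos, and at 16 somites in 0 of 9. Among wild-type embryos the count went from 4 of 4 at 12 somites to 3 of 4 at 13, 2 of 4 at 14 and 0 of 4 at 16. In mutants it was 1 of 2 at 12, 1 of 2 at 13, 0 of 2 at 14 and 0 of 5 at 16 somites. These counts describe the TPM values of 1 transcript per gene and were not tested. In wild type the abundant row listed next to Hoxb6 had medians of 29.3 CPM at 12 to 14 somites and 31.6 CPM at 16 somites.

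Hoxb6, a trunk Hox gene near the middle of the cluster, had the steepest slope over somite number of the 6 tested members, downward in both genotypes over all 4 stages, and its slope did not pass the test. Over 12 to 14 somites alone it was -0.22 log2 units per somite in wild type and 0.23, upward, in mutants. No transcript was called for either slope in that fit. Of its 6 mutants, embryo 1 at 12 somites had Hoxb6 at 4.91 CPM (scaled with TMM factors, here and below) and the others at 15.6 to 21.2. Its lowest wild-type embryo, at 14 somites, was at 7.76 CPM and the others at 13.8 to 26.1. In wild type the CPM of Hoxb6 was 22.6, 22.1, 20.3 and 20.5 at 12 somites, and 20.6, 13.8, 21.2 and 22.4 at 13 somites. At 14 somites the embryos had 26.1, 7.76, 14.4 and 14.5 CPM, and at 16 somites 7.25, 8.27, 11 and 9.93 CPM. All 4 embryos at 16 somites lay below all embryos at 12 and at 13 somites, while the 14-somite group reached across both ranges. Ranges that separate in this direction are found for 1.44% of 45394 tested transcripts between 16 and 12 somites, and for 1.52% between 16 and 13; no member was so separated between 16 and 14 somites, where the share is 2.25%. The group means were 21.4 ± 1.13, 19.5 ± 3.86, 15.7 ± 7.61 and 9.12 ± 1.68 CPM from 12 to 16 somites (SD, n = 4 each).

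In mutants the SD of Hoxb6 within a stage was wider than in wild type at 12 and 16 somites and narrower at 13 and 14. They gave 4.91 and 18.5 CPM at 12 somites, 17.1 and 21.2 at 13, 17.1 and 15.6 at 14, and 0, 15, 5.75, 7.52 and 11.5 at 16 somites. The 5 embryos at 16 somites lay below the 4 at 13 and 14 somites, as do 1.46% of tested transcripts, but mutant embryo 1 at 12 somites lay below all of them but the one at 0. The embryo at 0 is mutant embryo 1 at 16 somites, which stood apart over all transcripts. Hoxb6 had the widest scatter within groups of the 6, with an SD of 1.5 log2 units, larger than that of 96.4% of 3400 transcripts of like level; without that embryo the SD was 0.529.

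**Figure D2:**
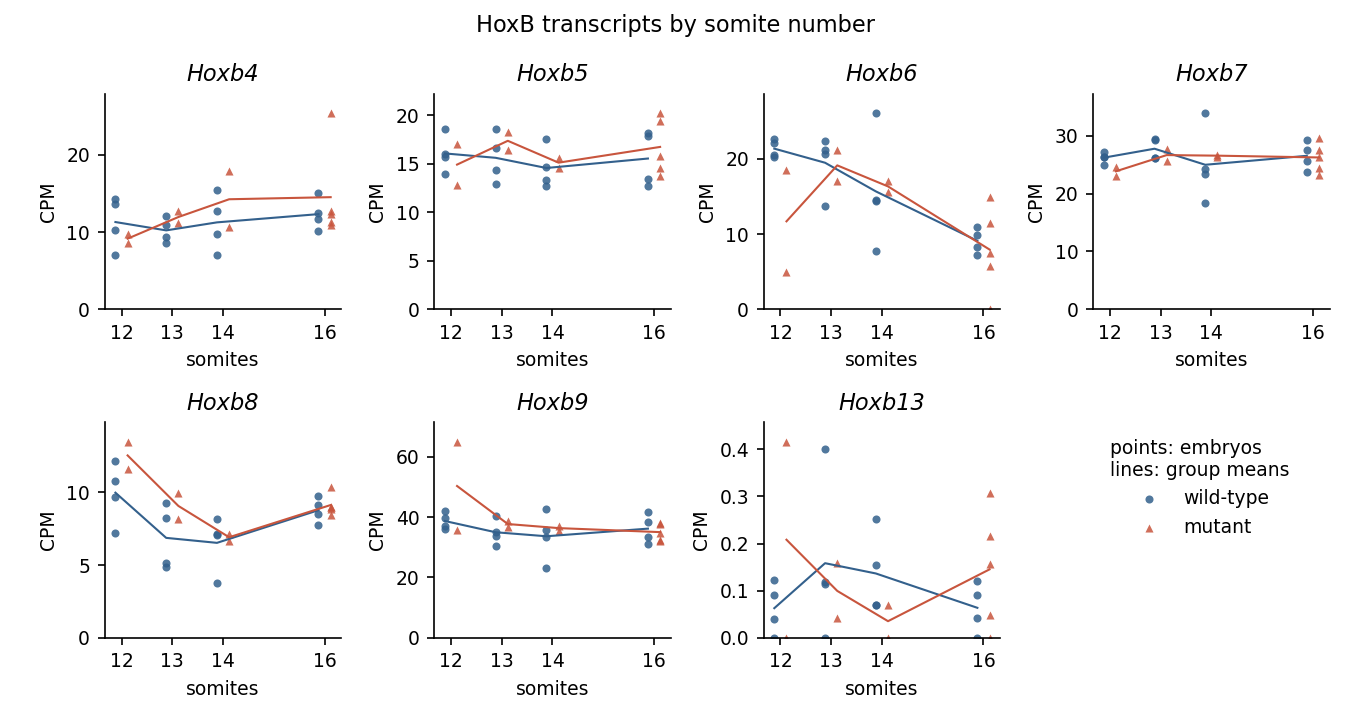
CPM of each HoxB transcript against somite number (points: embryos; lines: means of each genotype and stage; each panel has its own axis from 0). Hoxb6 in wild type runs from 20.3 to 22.6 CPM at 12 somites down to 7.25 to 11 CPM at 16; Hoxb7 stays between 18.4 and 33.9 CPM.

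The slope of Hoxb6 was -0.32 log2 units per somite in wild type (SE 0.155, 95% interval -0.64 to 0.00024, unadjusted p 0.0502, edgeR adjusted p 1) and -0.26 in mutants (SE 0.176, interval -0.62 to 0.10, adjusted p 0.726). Of the 6 tested members, 0 had a called slope in wild type, where 0.0242% of all tested transcripts were called, and 0 in mutants, where 0.0507% were. At an unadjusted p under 0.05 the counts were 0 of 6 members in wild type, with 3.49% of all transcripts, and 1 of 6 in mutants, with 8.92%. The wild-type slope of Hoxb6 was as large when fitted on the 16 wild-type embryos alone (-0.32, SE 0.0659, unadjusted p 0.000167), but its adjusted p was 0.344. Without both embryos that stood apart it was -0.32 in wild type (adjusted p 0.588) and -0.16 in mutants (adjusted p 0.900). As a step rather than a slope, the level at 16 somites against the earlier stages had a log2 difference of -1.04 in wild type (SE 0.562, edgeR adjusted p 0.863) and -0.95 in mutants (SE 0.565, adjusted p 0.525); 0 of 6 members were called, where 0.0176% and 0.0463% of all transcripts were, and 0 of 6 had an unadjusted p under 0.05, where 5.79% and 11.4% did.

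The other 5 tested members had wild-type slopes near 0, between -0.02 and 0.04 log2 units per somite. A slope near 0 does not exclude a bend between stages, and the means of Hoxb8, given below, had one. Hoxb4, the member nearest the head and neck end of the cluster, had a slope of 0.04 (95% interval -0.08 to 0.17) and Hoxb5 of -0.01 (-0.09 to 0.06). Hoxb7 had -0.0040 (-0.06 to 0.06), Hoxb8 -0.02 (-0.15 to 0.10) and Hoxb9 -0.02 (-0.10 to 0.06). These intervals leave room for a change of up to 0.17 log2 units per somite in Hoxb4 and 0.06 in Hoxb7 in the upward direction. In the downward direction they reach -0.15 in Hoxb8. The median size of the 6 wild-type slopes was 0.021 log2 units per somite, beside 0.071 over all tested transcripts, which are not matched to the members in level.

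The group means behind these slopes lay close together in wild type for Hoxb4, Hoxb5, Hoxb7 and Hoxb9, and those of Hoxb8 are given further below. Hoxb7 had 26.2 ± 0.88, 27.7 ± 1.85, 25 ± 6.5 and 26.5 ± 2.39 CPM in wild type from 12 to 16 somites (SD, n = 4 each). Its mutant means were 23.9 ± 1.03, 26.7 ± 1.47 and 26.6 ± 0.157 CPM (n = 2 each) and 26.2 ± 2.51 CPM at 16 somites (n = 5). Hoxb5 had 16.1 ± 1.93, 15.6 ± 2.51, 14.5 ± 2.15 and 15.5 ± 2.88 CPM in wild type over the same stages, a spread of less than 2 CPM between means. In mutants Hoxb5 stood at 14.9 ± 2.94, 17.4 ± 1.4, 15.1 ± 0.654 and 16.7 ± 2.9 CPM. Hoxb4 had 11.3 ± 3.36, 10.2 ± 1.61, 11.3 ± 3.65 and 12.3 ± 2.04 CPM in wild type, and 9.15 ± 0.879, 11.9 ± 1.07, 14.3 ± 5.18 and 14.5 ± 6.1 CPM in mutants. Its wild-type ranges overlapped between all 4 stages, and its 2 mutants at 12 somites, 9.77 and 8.53 CPM, lay below all other mutants, as 1.63% of tested transcripts do. Hoxb9 had 38.7 ± 2.8, 34.9 ± 4.16, 33.6 ± 8.11 and 36.2 ± 4.86 CPM in wild type.

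In mutants, Hoxb9 had the only slope with an unadjusted p under 0.05. Its CPM was 65 and 35.6 at 12 somites, 36.6 and 38.8 at 13, 37.2 and 35.5 at 14, and 37.8, 34.7, 32.4, 38 and 32.2 at 16 somites. A single embryo, number 1 at 12 somites, was high, and the other 10 lay between 32.2 and 38.8 CPM. The slope was -0.10 log2 units per somite (SE 0.0422, 95% interval -0.19 to -0.01, unadjusted p 0.0254, edgeR adjusted p 0.492), and with 1 embryo left out at a time it ranged from -0.13 to -0.02. Hoxb4 had a slope of 0.14 in mutants (SE 0.0720, interval -0.01 to 0.28, adjusted p 0.605), which was 0.05 without both embryos that stood apart. The slopes of Hoxb5, Hoxb7 and Hoxb8 in mutants were 0.03, 0.02 and -0.07, with intervals that all included 0.

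**Figure D3:**
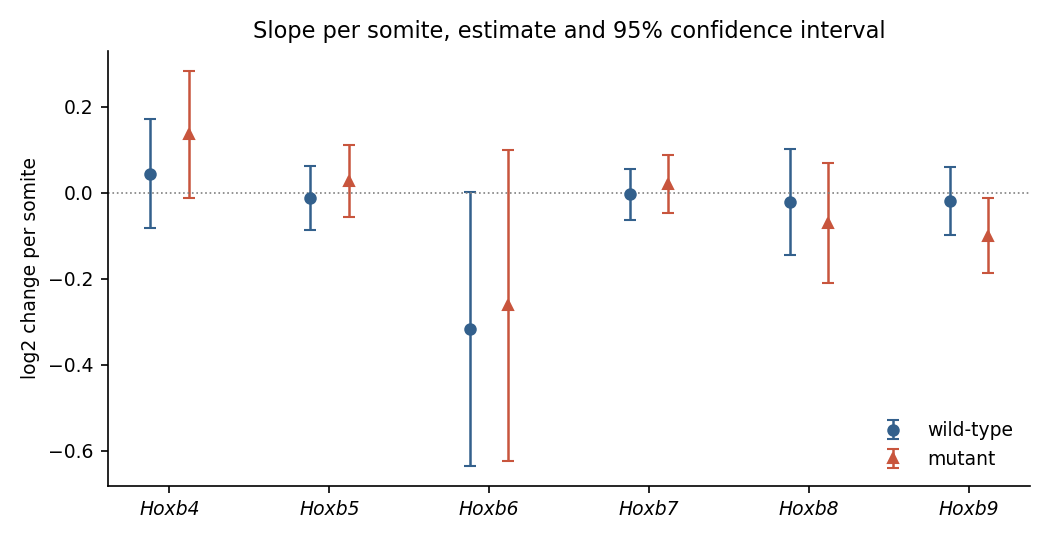
Log2 change per somite of the 6 tested members in wild-type (circles) and mutant embryos (triangles), with 95% confidence intervals. Hoxb6 is at -0.32 and -0.26 with wide intervals; the wild-type slopes of the other 5 lie between -0.02 and 0.04.

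The slopes were not shown to differ between genotypes for any of the 6. The difference, mutant less wild type, was largest for Hoxb4 at 0.09 log2 units per somite (95% interval -0.10 to 0.29) and Hoxb9 at -0.08 (-0.20 to 0.04), and was 0.06 for Hoxb6 (-0.42 to 0.53). It was 0.013 for Hoxb4 without mutant embryo 1 at 16 somites and -0.0029 for Hoxb9 without mutant embryo 1 at 12 somites. All 6 had an edgeR adjusted p of 1, and none had an unadjusted p under 0.05; of all transcripts, 0% were called, and 4.58% reached an unadjusted p under 0.05 (DESeq2 called 32 transcripts and no member).

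Hoxb8, the least abundant of the 6, had its lowest means at 13 and 14 somites in wild type and at 14 somites in mutants. The wild-type means were 9.99 ± 2.09, 6.88 ± 2.19, 6.54 ± 1.9 and 8.79 ± 0.869 CPM from 12 to 16 somites (SD, n = 4 each). The mutant means were 12.5 ± 1.31, 9.08 ± 1.24 and 6.92 ± 0.348 CPM at 12, 13 and 14 somites (n = 2 each) and 9.13 ± 0.728 CPM at 16 (n = 5). The wild-type ranges at 12 and 14 somites, 7.24 to 12.2 and 3.79 to 8.15 CPM, overlapped. Both mutants at 14 somites, 7.17 and 6.67 CPM, lay below all other mutants (8.2 to 13.5 CPM), as 2.22% of tested transcripts do. A bend of this kind is not what a slope measures, and no test of it was made.

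Mutant and wild-type embryos were compared with stage as a factor. No tested member was called: 0 of 6 passed, where 0.0154% of the 45394 tested transcripts were, and 0 of 6 had an unadjusted p under 0.05, where 7.63% of all transcripts did (DESeq2, limma voom and limma on TPM also called 0 of 6). The log2 effects, mutant over wild type, were 0.15 for Hoxb4 (SE 0.155, edgeR adjusted p 0.910), 0.06 for Hoxb5 (SE 0.087, adjusted p 0.945) and -0.23 for Hoxb6 (SE 0.352, adjusted p 0.950). Those of the 3 genes on the Hoxb13 side were -0.03 for Hoxb7 (SE 0.0688, adjusted p 0.976), 0.20 for Hoxb8 (SE 0.119, adjusted p 0.762) and 0.11 for Hoxb9 (SE 0.0913, adjusted p 0.855). Their median size was 0.130, beside 0.222 over all tested transcripts, and 4 were above 0 while those of the neighbours Hoxb6 and Hoxb7 were below. All tested transcripts are not matched to the members in level, and scatter falls with level. The median SD within groups was 0.339 log2 units among transcripts near the level of Hoxb8 and 0.215 near that of Hoxb9.

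The precision of these estimates differs by member. For Hoxb7 the 95% interval ran from -0.17 to 0.11 log2 units, and for Hoxb5 from -0.12 to 0.24. For Hoxb9 it ran from -0.07 to 0.30, for Hoxb8 from -0.05 to 0.44 and for Hoxb4 from -0.17 to 0.47. For Hoxb6 it ran from -0.96 to 0.49, the widest of the 6. The effect of Hoxb4 rested in large part on the embryos that stood apart: it was 0.00297 without them, and those of Hoxb6, Hoxb7, Hoxb8 and Hoxb9 were then -0.14, -0.07, 0.15 and 0.08. On the deposited TPM scale the median effect of all transcripts itself is -0.1254, and the effects of Hoxb4, Hoxb5 and Hoxb9 fall below 0 (-0.0090, -0.0769 and -0.0311). Less that median they are 0.1164, 0.0486 and 0.0943. The effect of Hoxb6 moved most on that scale, to -0.7515, or -0.6260 less the median. It includes the embryo listed at 0, whose log2 value there is set by the pseudocount.

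Single embryos showed how far the genotypes overlap. Hoxb7 ran from 18.4 to 33.9 CPM with a median of 26.3 in wild type, and from 23.1 to 29.6 CPM with a median of 26.3 in mutants. Hoxb5 ran from 12.7 to 18.6 CPM (median 15.2) in wild type and from 12.8 to 20.2 (median 15.8) in mutants. In both genes the genotypes overlap and the medians are close. Hoxb4 ran from 7 to 15.5 CPM (median 11.3) in wild type and from 8.53 to 25.4 (median 11.3) in mutants; the highest value is that of mutant embryo 1 at 16 somites, and the other 4 mutants of that stage had 11.3, 10.9, 12.3 and 12.7 CPM. Hoxb8 ran from 3.79 to 12.2 CPM (median 8.19) and from 6.67 to 13.5 (median 8.97), and Hoxb9 from 23 to 42.6 (median 35.8) and from 32.2 to 65 (median 36.6). The lowest wild-type values of Hoxb7, Hoxb8 and Hoxb9 are those of wild-type embryo 4 at 14 somites, which stood apart. The next lowest in wild type were 23.3, 4.89 and 30.5 CPM. No tested member separated all mutants from all wild-type embryos, as 0.0022% of transcripts do.

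Stage by stage, no member was called at 12, 13, 14 or 16 somites, where 0%, 0.00661%, 0.00661% and 0% of all transcripts were; the unadjusted p was 0.05 or more for all 6 at each stage, and 3.83%, 3.39%, 3.1% and 6.13% of all transcripts were under it. The estimate farthest from 0 was that of Hoxb6 at 12 somites, -0.87 log2 units (95% interval -2.57 to 0.83), between mutants at 4.91 and 18.5 CPM and wild-type embryos at 20.3 to 22.6 CPM. Of the 6 members, 2 lay below all wild-type embryos of that stage in both mutants, Hoxb6 and Hoxb7 (23.1 and 24.6 CPM, against 25 to 27.1), a pattern that 6.1% of all tested transcripts show. The Hoxb6 estimate depends on which of the 2 mutants is in the fit: it was -0.20 without embryo 1 and -2.12 without embryo 2. The smallest unadjusted p was that of Hoxb9 at 12 somites, 0.0695 (effect 0.38, interval -0.03 to 0.79, edgeR adjusted p 1). Without mutant embryo 1 that effect was -0.11. At 14 somites all 6 estimates were above 0, from 0.06 to 0.34; without wild-type embryo 4, the lowest of its group in Hoxb4, Hoxb5, Hoxb7, Hoxb8 and Hoxb9, those of Hoxb5, Hoxb7, Hoxb8 and Hoxb9 fell below 0. At 16 somites, the stage with 5 mutants, the effects lay between -0.20 (Hoxb6) and 0.24 (Hoxb4); without mutant embryo 1 both changed sign, to 0.14 for Hoxb6 and -0.045 for Hoxb4. The genotype by stage interaction was not called for any member (edgeR adjusted p 1 for all 6), where 0.00661% of all transcripts were called; 0 of 6 were under an unadjusted p of 0.05, where 2.95% of all were.

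**Figure D4:**
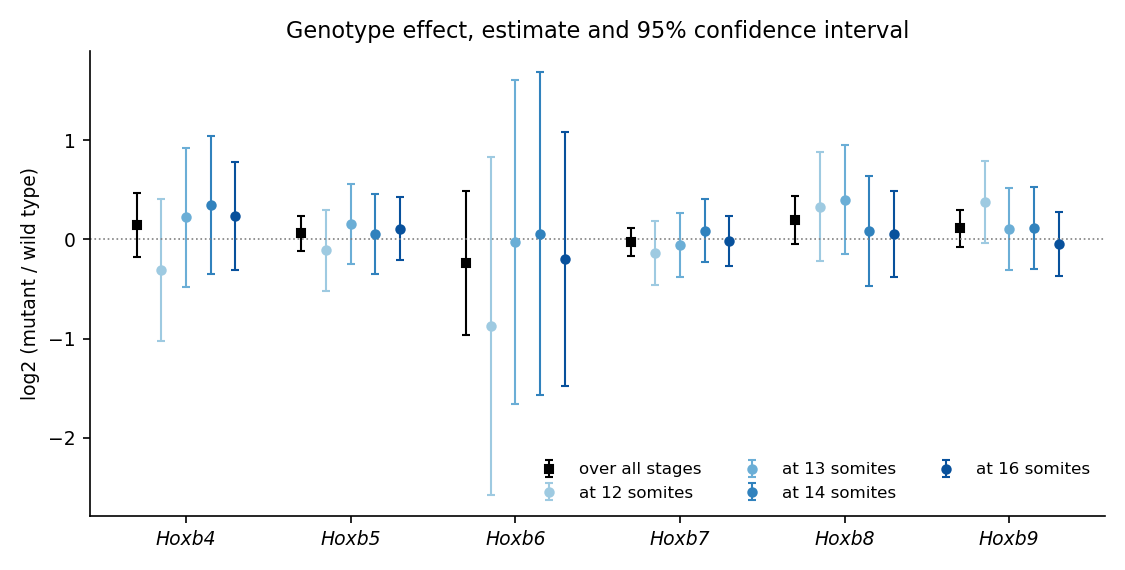
Log2 ratio of mutant to wild type for the 6 tested members, over all stages (squares) and at each stage (circles), with 95% confidence intervals. Intervals are narrowest for Hoxb7, from -0.17 to 0.11 over all stages, and widest for Hoxb6; all of them include 0.

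3 members have, next to or 2 rows from theirs in the deposited tables, another abundant row that the files assign to no gene. Reads that match more than one listed transcript are divided among them by estimation, so these values were set beside the members. Next to Hoxb6 that row, ENSMUST00000173432.2, was at 17.9 to 38.6 CPM and had medians of 29.3 CPM at 12 to 14 somites and 31.6 CPM at 16 somites in wild type, while Hoxb6 itself had medians of 20.6 and 9.1 CPM. The sum of both was 32.4 to 58.3 CPM at 12 to 14 somites (median 48.4) and 39.1 to 41.6 CPM at 16 somites in wild type. The slope of the sum was -0.10 log2 units per somite in wild type (SE 0.031, unadjusted p 0.00438, edgeR adjusted p 0.766) and -0.09 in mutants (SE 0.0352, adjusted p 0.466). In mutant embryo 1 at 16 somites, where Hoxb6 is listed at 0, the neighbouring row was at 32.9 CPM, within the range of the other embryos.

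The high single values of Hoxb4 and Hoxb9 came with low values of their neighbouring rows. In mutant embryo 1 at 16 somites Hoxb4 was at 25.4 CPM and ENSMUST00000100392.4 at 3.58 CPM, its lowest over all embryos. Their residuals had r -0.703 over the 27 embryos, this embryo included. In mutant embryo 1 at 12 somites Hoxb9 was at 65 CPM and ENSMUST00000174042.2 at 7.69 CPM, again its lowest, with r -0.224. Summed with these rows, the genotype effects over all stages were 0.00278 for Hoxb4 (SE 0.0727), 0.03 for Hoxb6 (SE 0.0747) and 0.03 for Hoxb9 (SE 0.076), with edgeR adjusted p of 0.999, 0.978 and 0.971. The Hoxb6 effect has the opposite sign from that of the single transcript. The standard errors of Hoxb4, Hoxb6 and Hoxb9 are all smaller than for the single transcripts.

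Between embryos of the same genotype and stage, the members did not vary as one block. With the group means taken off, 10 of the 21 pairs had a Pearson r above 0 over the 27 embryos, and 1 pair was called: Hoxb5 and Hoxb6, r 0.50 (permutation within groups, adjusted p 0.0376 over the 21 pairs) and Spearman's rho 0.557 (adjusted p 0.0946). Leaving out the 2 embryos farthest from the median of Hoxb5 gave r 0.438. Both genes lie under the non-coding Hoxb5os, whose part in the relation was not tested. The call was lost when any of several single embryos was left out. Without mutant embryo 1 at 16 somites the pair had r 0.645 (permutation adjusted p 0.108), and without mutant embryo 2 r 0.449 (adjusted p 0.235). No pair was called without wild-type embryo 1 or 3 at 16 somites, 2 at 13, or 1 or 3 at 14, each left out singly. The same held for mutant embryos 1 and 5 at 16 somites and 1 and 2 at 12. Over all single embryos left out, 0 to 3 pairs were called.

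Larger correlations did not pass the test. Hoxb4 and Hoxb6 had r -0.61 and rho -0.516 (permutation adjusted p 0.0852 and 0.0967), and r -0.291 without the 2 embryos farthest in Hoxb4; in mutant embryo 1 at 16 somites Hoxb4 was at 25.4 CPM and Hoxb6 at 0. Hoxb5 and Hoxb13 had r -0.587 (adjusted p 0.0813), but Hoxb13 rests on counts of 0 to 10. Hoxb4 and Hoxb7 had r 0.562, Hoxb7 and Hoxb8 had r 0.551 and Hoxb4 and Hoxb8 had r 0.506, with permutation adjusted p of 0.0813, 0.15 and 0.0813. Without the 2 embryos farthest in the first gene of each pair they were 0.395, 0.211 and 0.454, and on log2(TPM + 0.1) 0.3697, 0.2033 and 0.361. Hoxb7 had the narrowest scatter within groups, an SD of 0.173 log2 units, smaller than that of most transcripts of like level (21.5% of them had a smaller one), followed by Hoxb5 at 0.222, Hoxb9 at 0.239, Hoxb8 at 0.311 and Hoxb4 at 0.398.

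**Figure D5:**
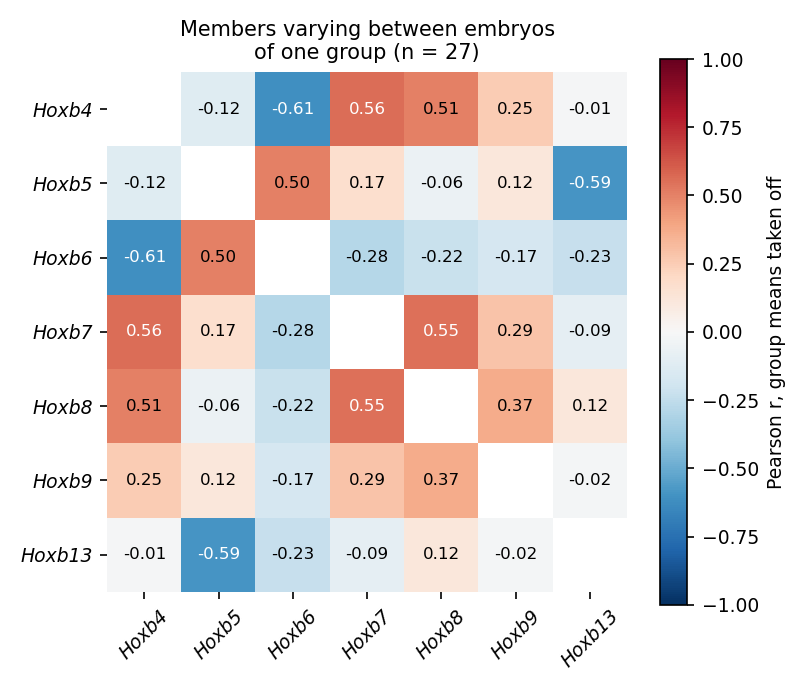
Pearson r between members over 27 embryos after the mean of each genotype and stage is taken off log2 CPM (red above 0, blue below). Hoxb4, Hoxb7 and Hoxb8 have r 0.51 to 0.56 with each other, none past the test. Hoxb6, which includes the embryo listed at 0, has r below 0 with all but Hoxb5 (0.50). None of those below 0 passed the test. On log2(TPM + 0.1) the r of Hoxb6 with Hoxb9 was 0.037, and the others below 0 stayed so.

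Among 24392 other transcripts averaging 1 CPM or more, the pattern over the 27 libraries most like the mean of the 7 members' standardised log2 CPM was that of ENSMUST00000144374.1 (Pearson r 0.822; 0 to 15.1 CPM), followed by ENSMUST00000128102.3 (r 0.809; 88.1 to 375 CPM). The most unlike was ENSMUST00000039449.8 (r -0.763). The files give no gene for these identifiers. The likeness rests in large part on few libraries: wild-type embryo 4 at 14 somites was far the lowest in the members' mean, at -1.49 against -0.383 to 0.502 in the others, and without it and mutant embryo 1 at 16 somites the 3 values were 0.558, 0.539 and -0.507. Hoxb8 and Hoxb7 followed the members' mean most closely, with r 0.698 and 0.659, while Hoxb6 had r -0.0183 and Hoxb13 had r 0.00854. Each member is itself part of that mean with equal weight, also Hoxb13, which rests on counts of 0 to 10. Without the same embryos these were 0.516, 0.395, 0.0205 and 0.302.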

How the data were processed

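RNA was sequenced from 27 tailbuds, 16 wild type and 11 mutant; genotype, somite number and embryo number came from the sample titles. The authors deposited 1 table per embryo with an estimated count, a TPM value and an effective length for each of 117135 transcripts, per the file headers; the submitters' processing notes name Salmon 1.5.2 and Trim Galore 0.5.0 among their tools and mm10 among their builds, with no role given. The annotation release and strand setting are not given in the sources used here. Estimated counts were rounded and fitted with edgeR 4.0.16 under R 4.3.3 (TMM, filterByExpr on the 8 groups, glmQLFit and glmQLFTest), which tested 45394 transcripts and 6 of the 7 members. Standard errors are the effect over the square root of F, adjusted p are Benjamini-Hochberg over all tested transcripts, and calls have an adjusted p under 0.05. Genotype effects had stage as a factor; stage effects came from a fit of the 8 groups; slopes came from 1 fit with an intercept and slope per genotype. CPM are TMM-scaled, log2 CPM used a prior count of 2, and TPM a pseudocount of 0.1. The procedure was tested on simulated counts. Alternatives used DESeq2 1.42.0, limma 3.58.1 (voom, or log2 TPM), RLE factors, no filter, a replicate block and each embryo left out, the last with the dispersion trend of the full fit; 3 alternatives (without both embryos that stood apart, a step at 16 somites, sums with a nearby row) were added after seeing the data. Plots used matplotlib 3.10.9 (Python 3.11.15).

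All 7 members are described, and the 3 other transcripts named are those most like and unlike the members' mean. The members and lists were chosen with earlier results of these data known. The planned lists of Cdx, PRC2, trunk-to-tail and other HoxB genes and of cell type markers were not run, because the tables at hand pair none of the identifiers with a symbol. Nothing in the labels says that same-numbered embryos share a litter or day, and over 10 pairs of the same number and stage the residual correlation was -0.0681 to 0.027, so numbers were not taken as pairs. Embryos are separate animals by their titles; with litter and batch not given, p-values measure the spread between these embryos. Counting error alone sets the limit of 3 counts.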

Additional observations from a re-analysis of the deposited data

Results flagged for a closer look

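In 35 groups of 4 or 5 embryos compared for their most distant value, 2 values stood apart from the rest of their group, where chance sets apart about 1 in 20, or 1.75 of 35. Both belong to mutant embryo 1 at 16 somites. Its Hoxb4 level was 25.4 CPM, against 10.9 to 12.7 CPM in the other 4 mutants of that stage. Its Hoxb8 level was 10.4 CPM, against 8.46 to 9.02 CPM, and passed the limit by a narrow margin (a gap of 0.711 of the range, with a limit of 0.71). That gap was taken from the rounded CPM given here, and rounding alone can decide so narrow a margin. This embryo also had Hoxb6 listed at 0 and the lowest correlation with the other libraries.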

How the results depend on the processing

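No member was called for genotype, slope or their differences under any alternative run: 0 of 6 with RLE factors, without a filter, with the replicate block (embryo number), with DESeq2, with limma voom, on log2 TPM and with any 1 embryo left out. The replicate block took the calls over all transcripts from 7 to 1 for genotype and from 23 to 10 for the mutant slopes; calls by DESeq2 for genotype numbered 183, by limma voom 42, by limma on TPM 43, and without both embryos that stood apart 28; they ran from 1 to 24 with 1 embryo left out. At 12, 13, 14 and 16 somites DESeq2 called 281, 212, 174 and 253 transcripts, where edgeR called 0, 3, 3 and 0, and for the slopes 40 in wild type and 189 in mutants, where edgeR called 11 and 23. Of 414 member values under alternatives other than leaving out 1 embryo, 383 kept their sign and 31 did not; no call changed. The cause of these sign changes was not tested, and all were of values that did not pass the test.
On log2 TPM the genotype effect over all stages was -0.0090 for Hoxb4, -0.077 for Hoxb5 and -0.031 for Hoxb9; it was -0.00035 for Hoxb9 at 13 somites, -0.039 for Hoxb5 at 14 somites, and -0.036 for Hoxb5 and -0.088 for Hoxb8 at 16 somites. That of Hoxb6 over all stages kept its sign there but was larger in size, at -0.75. The mutant slopes there were -0.0022 for Hoxb5 and -0.011 for Hoxb7, and the slope difference of Hoxb6 was -0.15. Without both embryos that stood apart, the effects at 14 somites were -0.019 (Hoxb5), -0.044 (Hoxb7), -0.12 (Hoxb8) and -0.048 (Hoxb9), and at 16 somites -0.045 (Hoxb4) and 0.14 (Hoxb6). Limma voom gave -0.0020 for Hoxb4 at 16 somites, 0.0042 for the wild-type slope of Hoxb8 and -0.00095 for the slope difference of Hoxb4. The Hoxb7 effect at 16 somites was 0.0019 with RLE factors and 0.0010 with DESeq2, and with the replicate block the Hoxb8 effect at 14 somites was -0.0015. Without the 16-somite embryos the wild-type slope of Hoxb4 was -0.0010 and the mutant slope of Hoxb6 was 0.23. Steps at 16 somites in wild type were 0.015 (Hoxb5), 0.015 (Hoxb7), 0.20 (Hoxb8) and 0.018 (Hoxb9). Summed with a nearby row, the genotype effect of Hoxb6 was 0.027, and the wild-type slopes of Hoxb4 and Hoxb9 were -0.014 and 0.0021.
With 1 embryo left out at a time, 37 of 1296 member values changed sign. The genotype effect over all stages ran from -0.048 to 0.0076 for Hoxb7. The genotype effect at 12 somites ran from -0.33 to 0.087 for Hoxb5 and -0.11 to 0.75 for Hoxb9. The genotype effect at 13 somites ran from -0.18 to 0.12 for Hoxb6 and -0.11 to 0.0092 for Hoxb7. The genotype effect at 14 somites ran from -0.084 to 0.67 for Hoxb4, -0.019 to 0.16 for Hoxb5, -0.17 to 0.42 for Hoxb6, -0.044 to 0.27 for Hoxb7, -0.12 to 0.21 for Hoxb8 and -0.048 to 0.24 for Hoxb9. The genotype effect at 16 somites ran from -0.045 to 0.34 for Hoxb4, -0.56 to 0.14 for Hoxb6, -0.066 to 0.033 for Hoxb7, -0.00050 to 0.11 for Hoxb8 and -0.11 to 0.032 for Hoxb9. The somite slope in wild type ran from -0.036 to 0.0052 for Hoxb5, -0.018 to 0.0066 for Hoxb7 and -0.049 to 0.015 for Hoxb8. The somite slope in mutants ran from -0.0029 to 0.048 for Hoxb5. The difference of somite slopes ran from -0.066 to 0.16 for Hoxb6.
Neighbouring pairs in the order of levels that differed numbered 5 in all alternatives except without mutant embryo 1 at 16 somites, where they numbered 6. No alternative for the order added the nearby rows. Correlated pairs numbered 0 to 3 with 1 embryo left out. At these depths Hoxb13 alone was limited by counts.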
